A study of Homo sapiens with 4 samples.

Results

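The miRNAs described here carry the highest numbers in the miRNA nomenclature and were detected in HEK293T cells, a human embryonic kidney line that expresses the SV40 large T antigen. They are the entries of the deposited table with a stem number (the digits after hsa-miR-) of 4000 or above and 50 or more counts over the 4 libraries. Entries with the stems 4421, 4454, 5089, 5100 and 6500 were left out. Of 2656 mature miRNAs in the table, 1219 carried such a number, 621 of these had a count in any library, and 119 made up the set. The cells were monoclonal lines with a landing pad, an engineered genomic site that receives a transgene, under either the PGK promoter (from phosphoglycerate kinase) or the CAG promoter (a cytomegalovirus enhancer joined to chicken beta-actin sequence). All cells were HEK293T in serum-supplemented medium without a further treatment in the labels, and 2 small RNA libraries were sequenced for each of the PGK and CAG groups. The series asked which miRNAs differ between the lines. Each line is a clone, and the labels do not say how many lines a group held, so promoter and clone cannot be told apart. Nothing in the labels says that replicates came from separate cultures, so p-values measure only the spread between these samples.

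Numbers in miRNA names follow the order of registration, so the highest ones mark the youngest annotations. Many came from deep sequencing surveys that recorded small numbers of reads from a hairpin, and for many of them the processing and function have been little studied. A typical miRNA is cut from its primary transcript by Drosha and from the hairpin by Dicer, and 1 of the strands, from the 5p or the 3p arm, is kept in an Argonaute protein. The seed, bases 2 to 8 of the mature strand, guides most target pairing. Mirtrons are a variant in which splicing of a short intron replaces the cut by Drosha.

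Library totals ran from 2845945 counts (CAG replicate 2) to 13780279 counts (CAG replicate 1), and 1 read was worth 0.0777 to 0.324 CPM (counts scaled to a library of 1000000, with TMM factors). A count of 0 allowed a level of up to 0.233 to 0.972 CPM (3 counts). The 4 HOX-cluster miRNAs chosen as a sign of trunk and kidney lineage summed to 101592 to 131421 CPM in each library. The 10 miRNAs chosen to mark hepatocytes, blood cells, neurons, muscle and pluripotent cells summed to 0.972 to 3.76 CPM. Of these, 3 (miR-223-3p, miR-302a-3p and miR-302d-3p) had 0 counts in all libraries. Not every miRNA linked to these cell types was so low. Muscle miR-1-3p averaged 57.4 CPM over the 4 libraries and neural miR-9-5p 2952 CPM.

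The mature sequences below belong to the most abundant members and to those that differed between the groups, because the results turn on them. They are RefSeq entries (GRCh38.p14), written 5′ to 3′ with the seed in capitals. RefSeq held a sequence for 101 of the 119 members. No entry was matched for miR-4286, miR-4326 and miR-9903.
miR-7974: aGGCUGUGaugcucuccugagccc
miR-4521: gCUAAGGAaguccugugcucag
miR-7706: uGAAGCGCcugugcucugccgaga
miR-4473: cUAGUGCUcuccguuacaagua
miR-7977: uUCCCAGCcaacgcacca
miR-12135: uAAAGGUUuguuuguaaa
miR-4787-3p: gAUGCGCCgcccacugccccgcgc
miR-5091: aCGGAGACgacaagacugugcug
miR-4501: uAUGUGACcucggaugaauca
miR-4745-5p: uGAGUGGGgcucccgggacggcg
miR-5579-3p: uUAGCUUAaggaguaccagauc
miR-5579-5p: uAUGGUACuccuuaagcuaac

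The set was small in the pool of miRNA reads. PGK replicates 1 and 2 gave it 0.471% and 0.483% of all counts, and CAG replicates 1 and 2 gave it 0.579% and 0.548%. Both CAG shares were above both PGK shares, with the excess in different members in each CAG library. The 3 most abundant members, miR-7974, miR-4521 and miR-7706, held 62.4% of the 168140 counts of the set. They made up 0.270% and 0.278% of all counts in PGK and 0.400% and 0.283% in CAG libraries, so CAG replicate 1 stood apart. Without them the shares were 0.202% and 0.204% in PGK and 0.179% and 0.265% in CAG libraries. CAG replicate 1 was then the lowest and CAG replicate 2 the highest. These shares describe entries chosen by their counts and were not tested.

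Levels fell off steeply below the leading entries. The members had a median of 4.49 CPM (1.56 to 1327 CPM), 29 of 119 reached 10 CPM and 9 reached 100 CPM. Among the 579 miRNAs with lower numbers, or let-7 names, and the same 50 counts, the median was 35.3 CPM, and 212 reached 100 CPM. The count limit belongs to the rule, so these values are a description. miR-7974 was the highest member and ranked 71 among all entries of the table. Only 3 members stood among the 100 most abundant entries. All 119 passed the low-count filter. In CAG replicate 2, the shallowest library, 42 members had fewer than 10 counts and miR-4517 and miR-4689 had 0.

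By number, 53 members were numbered in the 4000s, 18 in the 5000s, 28 in the 6000s and 10 in the 7000s. Another 2 were in the 9000s, 5 in the 10000s and 3 in the 12000s. The 7000s held the most counts (83205) because miR-7974 and miR-7706 are there, and their median was 8.26 CPM. The 6000s, a block rich in entries proposed as mirtrons, had a median of 3.47 CPM and reached 37.9 CPM at most. None of the 39 entries of the 8000s reached the limit, and 2 of them had any count. Just inside the limit stood miR-7114-5p and miR-5579-5p with 50 counts and miR-5000-5p with 51, and just outside it miR-6818-5p and miR-4762-3p with 49 and miR-6807-5p with 48.

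**Figure D1:**
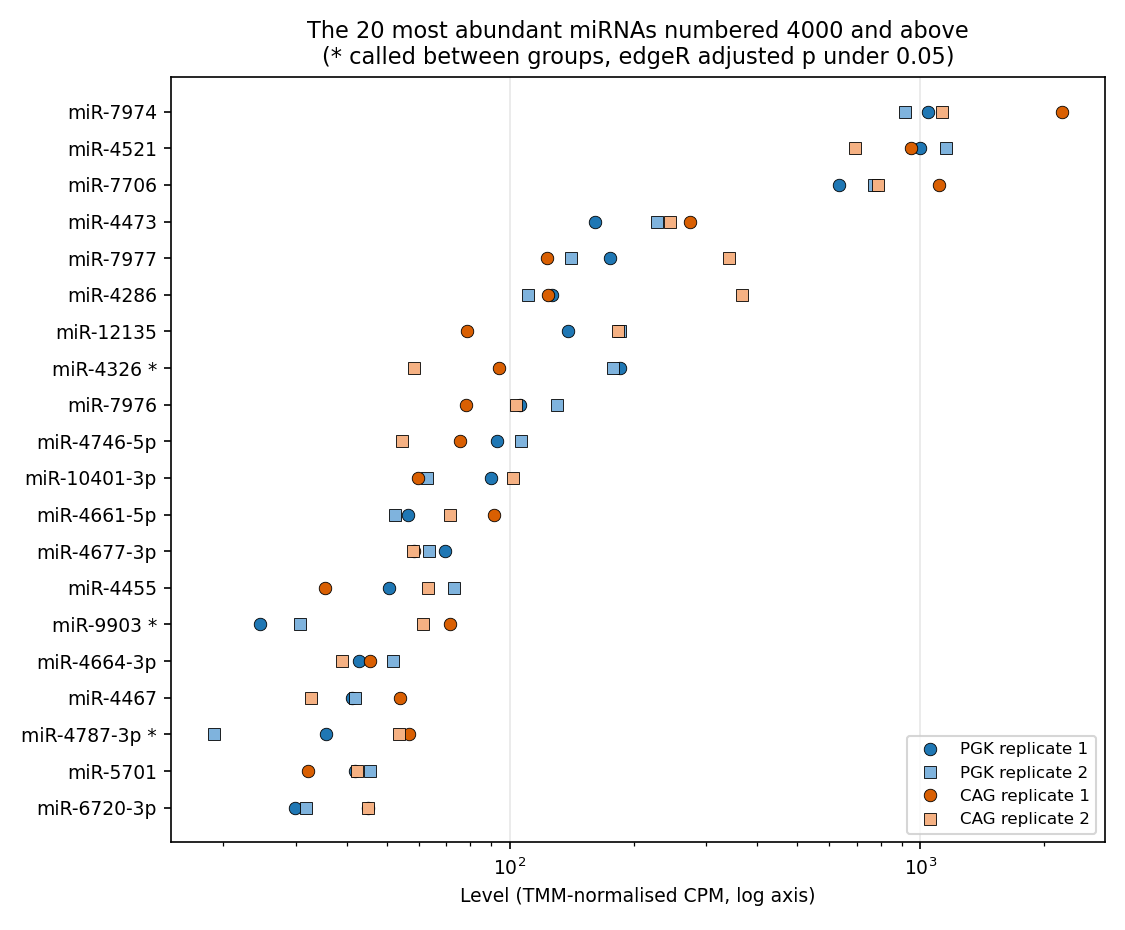
Levels of the 20 most abundant members in each library, in TMM-normalised CPM on a log axis. Circles and squares are replicates 1 and 2, blue for PGK and orange for CAG. miR-4326, miR-9903 and miR-4787-3p are marked as called between the groups, and CAG replicate 2 stands far above the other libraries for miR-7977 and miR-4286.

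Of the 3 leading members, miR-7974 (hairpin chr19:11495544-11495622, minus strand) lies in an intron of ZNF653, a zinc finger gene. The PGK libraries, in replicate order, had 1042 and 919.7 CPM, and the CAG libraries 2218 and 1129.55 CPM. Both CAG libraries were above both PGK libraries, but the CAG replicates differed 1.96-fold. The log2 fold change (CAG minus PGK) was 0.77 (SE 0.28; edgeR adjusted p = 0.0992). This p lay above the threshold of 0.05 over all 773 miRNAs tested, so it was not called. Without CAG replicate 2 the log2 fold change was 1.18, and without CAG replicate 1 it was 0.21. A fit with 1 CAG library takes its spread from the PGK pair alone, so no p-value is given for it here.

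miR-4521 (chr17:8186945-8187004, plus strand, outside annotated host genes) had 999.7 and 1158 CPM in PGK and 949.6 and 693 CPM in CAG cells, in replicate order here and below. The groups did not overlap, with PGK higher, and the log2 fold change was −0.39 (SE 0.20; edgeR adjusted p = 0.235). Without CAG replicate 1 it was −0.63, and without CAG replicate 2 it was −0.18. miR-7706 (chr15:85380596-85380662, plus strand) lies in an exon of an annotated transcript of AKAP13, which encodes a scaffold for protein kinase A. Its levels were 634 and 769 CPM in PGK and 1111 and 787 CPM in CAG cells. The upper PGK and the lower CAG library nearly met, and the log2 fold change of 0.44 (SE 0.21) was not called (edgeR adjusted p = 0.206). Without CAG replicate 2 it was 0.67, and without CAG replicate 1 it was 0.17.

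The next abundant members stood between 54.5 and 367 CPM in single libraries. miR-4473, in an intron of MLLT3, a subunit of a transcription elongation complex, had 161 and 228 CPM in PGK and 275 and 245 CPM in CAG cells. miR-7976, in an intron of TPRA1, had 106 and 130.2 CPM in PGK and 78.0 and 103 CPM in CAG. miR-4746-5p (chr19:4445978-4446048, plus strand) had 92.7 and 106 CPM in PGK and 75.5 and 54.5 CPM in CAG. In all 3 the groups did not overlap, miR-4473 being higher and the other pair lower in CAG, and none was called (log2 fold changes of 0.42, −0.40 and −0.59; edgeR adjusted p = 0.232, 0.258 and 0.0982). Without CAG replicate 1 the log2 fold change of miR-4746-5p was −0.86, and without CAG replicate 2 it was −0.39. Such separation was common: 7 of the 10 most abundant members and 61 of all 119 had groups that did not overlap, beside 57.2% of all 773 miRNAs tested. Of the 61, CAG was above PGK in 30 and below in 31, beside 29.8% and 27.4% of all miRNAs tested.

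Between the groups, 4 members were called higher and 3 lower in CAG cells (edgeR quasi-likelihood test, adjusted p under 0.05 over all 773 miRNAs tested). Those 7 calls are 5.88% of the 119 members, beside 14.2% called over all miRNAs tested (8.15% higher and 6.08% lower). The rule left out miR-4421, miR-5100 and miR-6500-3p, each of which was called higher. With the left-out stems kept, 7 of 123 were higher and 3 lower. The median log2 fold change was −0.09 over the members and −0.0042 over all miRNAs tested. A difference of at least 2-fold was fitted for 8 members in the higher and 9 in the lower direction of 119, beside 67 and 48 of all 773 miRNAs tested. These are bulk libraries of a cell line, in which a lower level in every cell and fewer cells with the miRNA cannot be told apart.

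Read by level, members were called about as often as other miRNAs under 3 CPM. They were called less often in the higher classes, some of which hold few members. Under 3 CPM 3 of 40 members were called (7.5%), beside 7.09% of the other miRNAs tested at that level. From 3 to 10 CPM it was 1 of 50 members and 12.5% of the others, from 10 to 30 CPM 0 of 8 and 16.2%, from 30 to 100 CPM 2 of 12 and 20.2%, and over 100 CPM 1 of 9 and 20.7%. The difference between members and others was not tested, because the left-out stems were partly chosen for their calls. Before adjustment, edgeR p-values were under 0.05 for 19 of 119 members and for 208 of all 773 miRNAs tested. From 10 to 30 CPM they were so for 0 of 8 members and 31 of 105 others.

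**Figure D2:**
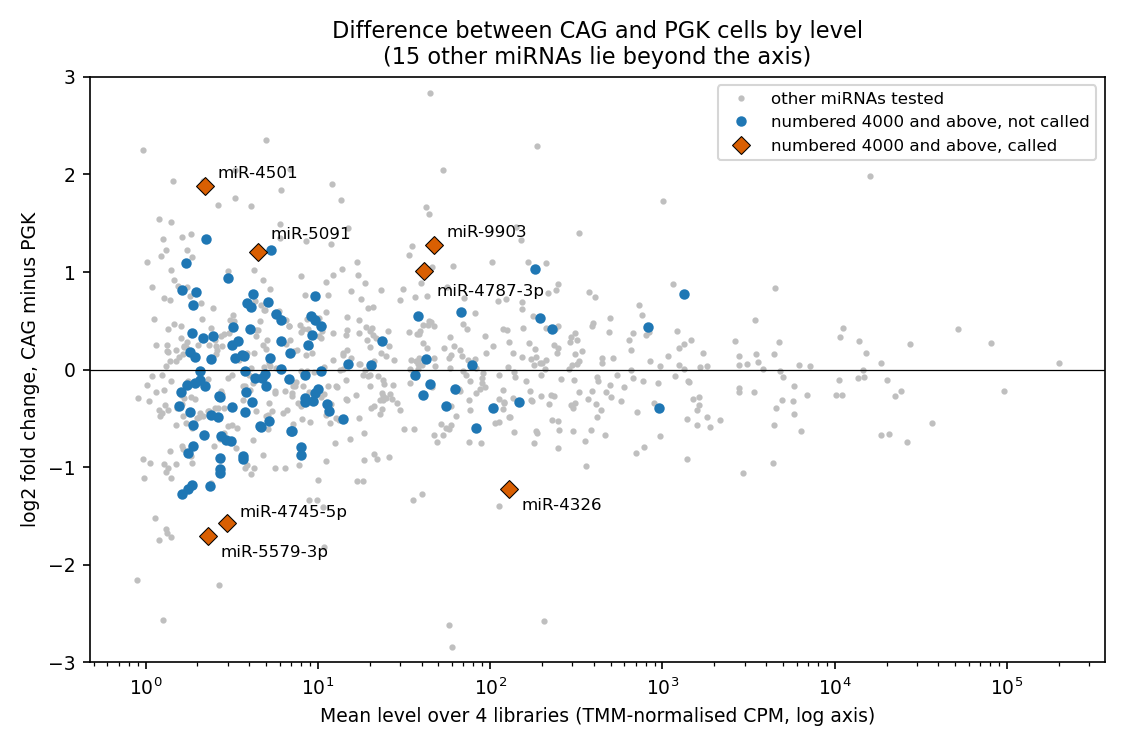
Log2 fold change (CAG minus PGK) against mean level in TMM-normalised CPM on a log axis, for the members (blue, or orange diamonds where called) and the other miRNAs tested (grey). The 7 called members are named, and 15 other miRNAs lie beyond the vertical axis, which ends at 3 in both directions.

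Among called members of at least 10 CPM, miR-4326 fell. It stood at 185 and 178 CPM in PGK cells and at 94.0 and 58.3 CPM in CAG cells. Both CAG libraries were well below the PGK pair, which lay close together. The mean went from 182 ± 5.23 to 76.2 ± 25.2 CPM (SD, n = 2), a log2 fold change of −1.22 (SE 0.23; edgeR adjusted p = 0.0061). Without PGK replicate 1 and without PGK replicate 2 the fold change was −1.22 and −1.28, but the call was lost (edgeR adjusted p = 0.159 and 0.187).

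miR-9903 and miR-4787-3p rose. miR-9903 had 24.5 and 30.8 CPM in PGK and 71.4 and 61.3 CPM in CAG cells, and the groups were clearly apart. Its mean went from 27.7 ± 4.45 to 66.3 ± 7.15 CPM (SD, n = 2), 2.42-fold (log2 fold change 1.27, SE 0.22; edgeR adjusted p = 0.0033). The call was lost without PGK replicate 1 and without PGK replicate 2 (edgeR adjusted p = 0.124 and 0.115; log2 fold changes 1.10 and 1.43).

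miR-4787-3p comes from a hairpin at chr3:50675080-50675163 (plus strand) with no host gene on its strand. Its levels were 35.7 and 18.96 CPM in PGK and 56.6 and 53.5 CPM in CAG cells. The CAG libraries were nearly equal and the PGK libraries differed 1.88-fold. The fitted change was 2.01-fold (log2 fold change 1.01, SE 0.29; edgeR adjusted p = 0.0442). It was 1.52 without PGK replicate 1 and 0.62 without PGK replicate 2 on the log2 scale, and the call was lost in both (edgeR adjusted p = 0.0594 and 0.290).

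The other 4 called members had 67 to 151 counts in all. miR-4501, in an intron of HS6ST3, a heparan sulfate sulfotransferase gene (chr13:96427229-96427292, plus strand), rose. It had 10 and 5 counts in PGK cells and 51 and 9 in CAG cells, or 1.25 and 0.697 against 3.96 and 2.92 CPM. The groups did not overlap, but CAG replicate 2 rests on 9 reads. The log2 fold change was 1.88 (SE 0.49; edgeR adjusted p = 0.0285). miR-5091 (chr4:13627865-13627957, plus strand) rose as well, with 25 and 18 counts in PGK and 92 and 16 in CAG, or 3.13 and 2.51 against 7.14 and 5.19 CPM (log2 fold change 1.21, SE 0.35; edgeR adjusted p = 0.0435).

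miR-5579-3p and miR-4745-5p fell. miR-5579-3p comes from an intron of TENM4, a teneurin gene (chr11:79422169-79422226, minus strand), and had 26 and 25 counts in PGK and 11 and 5 in CAG cells, or 3.25 and 3.49 against 0.854 and 1.62 CPM. The log2 fold change was −1.71 (SE 0.49; edgeR adjusted p = 0.0398). The other arm, miR-5579-5p, had 21 and 14 counts in PGK and 12 and 3 in CAG cells. It was lower too, at 2.63 and 1.95 against 0.932 and 0.972 CPM, but not called (−1.28; edgeR adjusted p = 0.134). miR-4745-5p lies inside an exon of an annotated transcript of PTBP1, a splicing repressor gene (chr19:804940-805001, plus strand). It had 29 and 35 counts in PGK and 15 and 7 in CAG, or 3.63 and 4.88 against 1.16 and 2.27 CPM (log2 fold change −1.57, SE 0.46; edgeR adjusted p = 0.0441).

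All 4 of these calls were lost without PGK replicate 1, without PGK replicate 2 and without CAG replicate 1. The PGK fits lost all 7 calls. There the log2 fold changes of the 4, without PGK replicates 1 and 2 in turn, were 2.35 and 1.51 for miR-4501 and 1.35 and 1.03 for miR-5091. They were −1.75 and −1.64 for miR-5579-3p and −1.77 and −1.32 for miR-4745-5p. Over the 3 fits edgeR adjusted p-values of the 4 ran from 0.133 (miR-4501 without PGK replicate 1) to 0.583 (miR-4745-5p without CAG replicate 1). Without CAG replicate 1 the log2 fold changes were 1.55 for miR-4501, 0.87 for miR-5091, −1.04 for miR-5579-3p and −0.88 for miR-4745-5p. Without CAG replicate 2 they were 1.99 for miR-4501, 1.335 for miR-5091, −1.96 for miR-5579-3p and −1.84 for miR-4745-5p. Fits with 1 CAG library take their spread from the PGK pair alone.

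Arm balance was read on hairpins with a row for each arm. Of the 119 members 37 were named 5p, 45 were named 3p and 37 had no arm in the name. There were 65 hairpins with both arms listed, of which 39 had more 3p and 26 more 5p counts. The leading arm held a median of 95.8% of the counts of both arms, and in 44 of 65 it held at least 90%. The other arm had 0 counts in 16. The same arm led in every library for 60 of the 65. Arms of a hairpin differ in ligation and amplification as well as in abundance, and these intervals cover counting error only.

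The most lopsided abundant hairpins kept 1 arm nearly alone. For miR-4746 the 5p arm had 2644 and the 3p arm 6 counts, a 5p share of 99.8% (95% exact Clopper-Pearson interval 99.5 to 99.9). For miR-4787 the 5p arm had 3 and the 3p arm 1315 counts, a 5p share of 0.228% (0.0470 to 0.664). The 5p share of miR-4677, in an intron of the centrosomal protein gene SDCCAG8, was 10.3% and 7.51% in PGK and 11.8% and 10.5% in CAG cells. That of miR-6720 was 10.2% and 6.56% in PGK and 8.24% and 11.5% in CAG. In both the libraries overlapped between groups.

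A few hairpins yielded both arms at like levels. miR-6509, in an intron of WDR91, had 84 counts from the 5p and 80 from the 3p arm, a 5p share of 51.2% (43.3 to 59.1). miR-4742 had 73 and 100 counts (42.2%, 34.7 to 49.9) and miR-5699 86 and 130 (39.8%, 33.2 to 46.7). In single libraries the 5p share of miR-4742 ran from 20.8% to 55.2%, with both extremes in CAG cells. miR-4797, with 152 counts, had a 5p share of 18.4% and 8.70% in PGK and of 36.4% and 46.2% in CAG cells. All PGK shares lay below all CAG shares. This hairpin was chosen after its values were seen, and 2 libraries against 2 cannot reach an exact two-sided p below 0.333.

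Both arms were members for 12 hairpins, and their fold changes shared a sign in 8 of them. The pairs read the same precursor and are not independent. miR-4661 had the highest counts among these, with log2 fold changes of 0.59 for the 5p arm (56.4 and 52.6 CPM in PGK, 91.3 and 71.3 CPM in CAG) and 1.22 for the 3p arm (3.50 and 2.51 CPM in PGK, 6.06 and 9.40 CPM in CAG). Each arm was higher in both CAG libraries than in both PGK libraries, and neither was called (edgeR adjusted p = 0.0872 and 0.0509). Signs were opposite for the arms of miR-4677, miR-6516, miR-5000 and miR-4742.

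**Figure D3:**
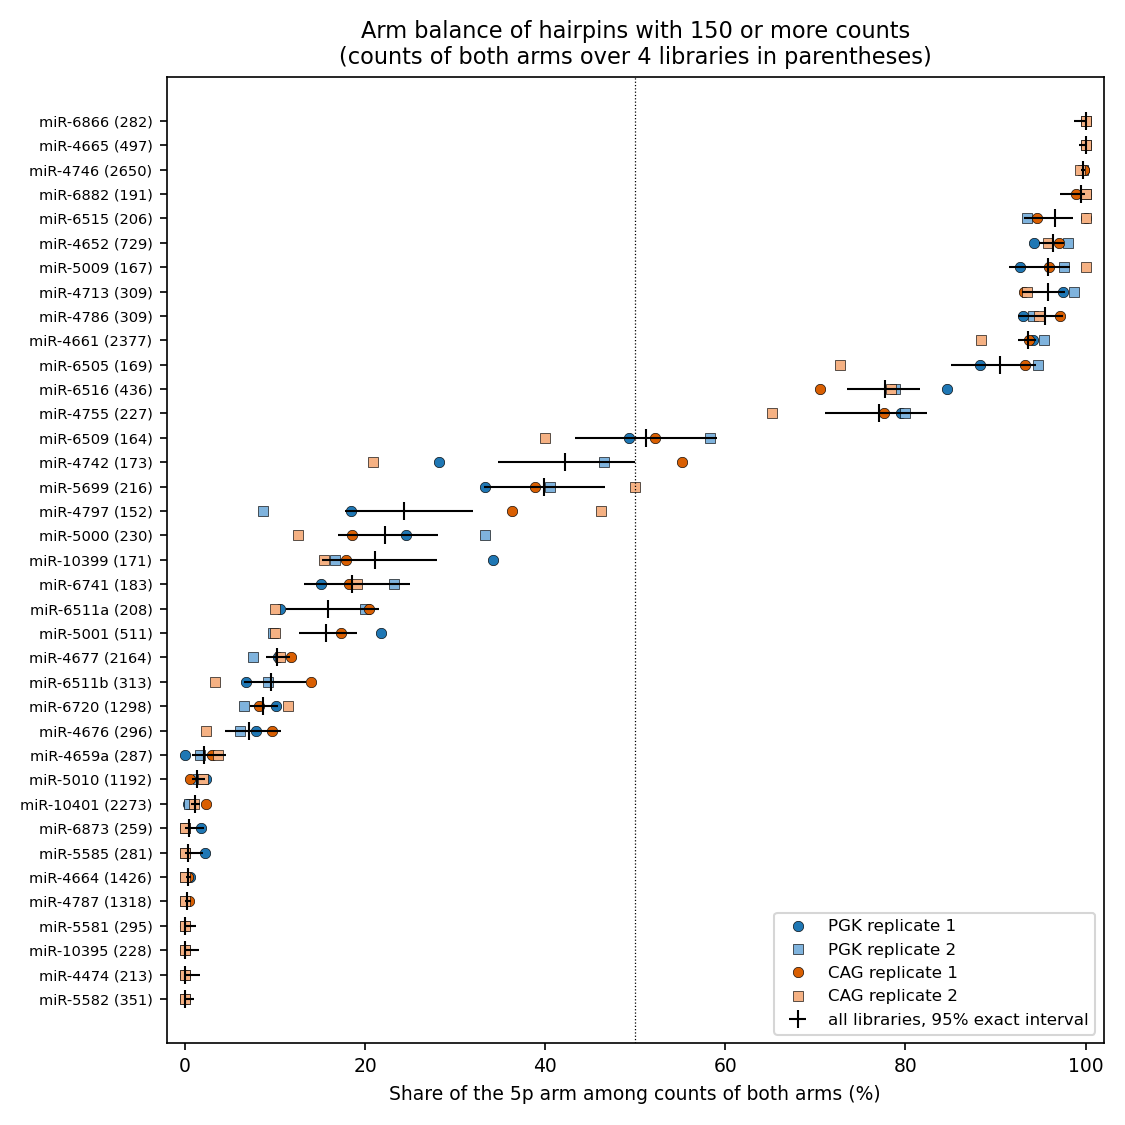
Share of the 5p arm among the counts of both arms (percent) for the 37 hairpins with 150 or more counts, whose number is given in parentheses. Coloured symbols are the 4 libraries, and the black tick with its bar is the share over all libraries with a 95% exact interval. Most hairpins sit near 0% or 100%, and miR-6509, miR-4742 and miR-5699 lie near the middle.

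Positions were found for 93 members, on 91 distinct hairpins and 22 chromosomes, with 13 members on chromosome 1. In GENCODE release 29, 71 of the 93 overlapped a gene on the same strand and 67 a protein-coding gene. For 49 the hairpin lay in an intron, for 17 inside an exon of an annotated transcript, which can be a retained intron, and for 5 across an exon edge. The other 22 were intergenic. A hairpin with an end within 10 bases of an exon edge was called mirtron-like, which was the case for 20 members, with both ends only for miR-6857-3p in SMC1A, a cohesin subunit gene. Among members with a position, those that met this limit were rare in these cells. miR-5010-3p, at 36.6 CPM and across an exon edge of ATP6V0A1, had its nearer end 19 bases away and was not counted. The highest of the 20 were miR-6511b-3p at 9.34 CPM and miR-6873-3p, in WDR46, at 8.39 CPM. Of these 20 members 1 was called (miR-4745-5p, lower), and their median log2 fold change was −0.13, beside 14.2% called and −0.0042 over all miRNAs tested.

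Seeds of the members were mostly their own. The 101 members with a sequence carried 99 distinct seeds, and 87 of them held all counts of their seed family in the deposited family table. The shared seeds joined miR-6511a-3p with miR-6511b-3p and miR-4498 with miR-5001-5p. The miR-6511 pair is printed because its near-identical sequences make the split of reads uncertain.
miR-6511a-3p: cCUCACCAucccuucugccugc
miR-6511b-3p: cCUCACCAccccuucugccugca
miR-6511a-3p had 9.51 and 3.35 CPM in PGK and 5.13 and 2.92 CPM in CAG cells. Its 2.84-fold difference between PGK replicates was the largest in that group among members of at least 5 CPM, followed by miR-4483 (6.26 and 13.2 CPM, 2.12-fold).

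miR-9985 held the smallest share of its seed family among the 101, a family led by miR-27. Its sequence is set beside the miR-27 strands because the first 15 bases are the same in all.
miR-9985: uUCACAGUggcuaagcuau
miR-27a-3p: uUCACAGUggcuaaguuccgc
miR-27b-3p: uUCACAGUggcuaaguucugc
miR-9985 had 29 and 24 counts in PGK and 24 and 9 in CAG cells, which is 0.0184% of the 467587 counts of its seed family. RefSeq places its hairpin on chromosome Y (4606120 to 4606228, plus strand). The rule by which the authors divided reads that fit both names was not found in the labels or headers.

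Some members match other RNA classes letter for letter. miR-12136 matched the mitochondrial tRNA gene MT-TS1, miR-4485-3p the mitochondrial ribosomal RNA gene MT-RNR2, and both arms of miR-6516 the small Cajal body RNA SCARNA16. These RNAs are abundant parts of mitochondrial translation and of snRNA modification. miR-6516-5p was the highest of them, at 13.8 and 11.99 CPM in PGK and 7.999 and 12.96 CPM in CAG. The others stood below 7 CPM in each library. miR-4485-3p, at 4.76 and 4.32 against 2.02 and 3.57 CPM, was lower in both CAG libraries but not called (log2 fold change −0.92; edgeR adjusted p = 0.166). A list of 9 stems reported to overlap ribosomal or mitochondrial RNA had 7 rows in the table. miR-4485-3p and miR-12136 were members, miR-4516 had 0 counts in all libraries, and the other 4 rows had 2 to 17 counts.

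Over all levels, replicates of the members differed more than those of other miRNAs. Within classes of like level this was so in all 5 for CAG and in 2 of 5 for PGK. The median ratio of the higher to the lower replicate, with 0.5 CPM added, was 1.27 in PGK and 1.36 in CAG for members, beside 1.17 and 1.18 for the other miRNAs tested. From 3 to 10 CPM it was 1.27 and 1.31 for members and 1.19 and 1.25 for others. Over 100 CPM it was 1.21 and 1.61 for the 9 members there and 1.10 and 1.13 for others. In PGK libraries the ratios were 1.35 in both sets under 3 CPM, 1.21 in both from 10 to 30 CPM, and 1.12 for members against 1.15 from 30 to 100 CPM. These ratios were not tested.

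Among abundant members the widest CAG differences were those of miR-4286, miR-7977 and miR-12135, the last named after its values were seen. miR-4286 had 127 and 110.4 CPM in PGK and 124 and 367 CPM in CAG cells. miR-7977 (chr3:176515103-176515151, plus strand) had 175 and 141 CPM in PGK and 123 and 342 CPM in CAG. miR-12135, in an intron of NEO1, which encodes the receptor neogenin, had 139 and 185 CPM in PGK and 78.6 and 184 CPM in CAG. The first 2 stood between 110.4 and 175 CPM in 3 libraries and were 2.97-fold and 2.78-fold higher in CAG replicate 2 than in CAG replicate 1. miR-12135 was low in CAG replicate 1 alone and 2.34-fold higher in CAG replicate 2.

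By edgeR none of these 3 was called, while DESeq2 called miR-4286 (log2 fold change 1.02; DESeq2 adjusted p = 0.0461). The sign of the difference hung on which CAG library was used for miR-7977 and miR-12135. For miR-7977 the log2 fold change was 0.53 with all libraries (edgeR adjusted p = 0.454), 1.12 without CAG replicate 1 and −0.36 without CAG replicate 2. For miR-12135 these fold changes were −0.33 (edgeR adjusted p = 0.598 with all libraries), 0.19 and −1.03. For miR-4286 the log2 fold change was 1.03 with all libraries (edgeR adjusted p = 0.183), 1.64 without CAG replicate 1 and 0.06 without CAG replicate 2. With 1 CAG library the spread comes from the PGK pair alone.

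Mature length moved with this library difference. Among members of at least 5 CPM, all 5 of 17 or 18 bases were higher in CAG replicate 2 than in CAG replicate 1, with a median ratio of 1.77 (0.5 CPM added here and in the next ratios). In PGK cells the median ratio of replicate 2 to replicate 1 was 1.38 for the same 5. The 24 members of 22 bases had a median ratio of 0.895 in CAG and the 9 of 23 or 24 bases 0.825. Among other miRNAs tested the CAG ratios were 2.19 for 4 of 17 or 18 bases, 1.18 for 25 of 19 or 20, 1.00 for 312 of 21 or 22 and 0.840 for 89 of 23 or more. The longest of the abundant members, miR-7974 and miR-7706 with 24 bases, were lower in CAG replicate 2. The length classes were chosen after the values were seen, and the part of read length in any difference between the groups was not tested.

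**Figure D4:**
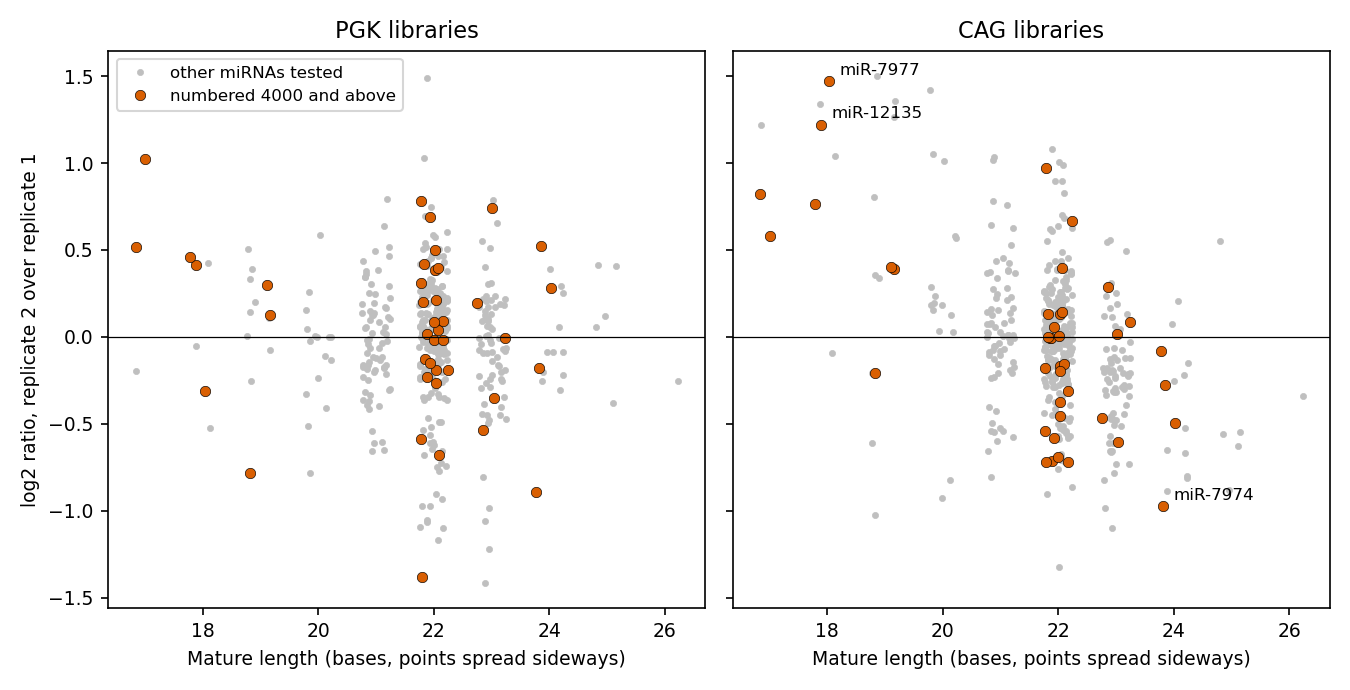
Log2 ratio of replicate 2 to replicate 1 against mature length in bases, for PGK (left) and CAG libraries (right), with 0.5 CPM added, for tested miRNAs that average 5 CPM or more and have a RefSeq sequence. Orange points are members and grey points the other miRNAs tested, spread sideways for sight. In CAG libraries short members such as miR-7977 and miR-12135 lie above 0 and the 24-base miR-7974 lies lowest among the members.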

How the data were processed

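The authors deposited whole-number counts for 2656 mature miRNAs and for seed families, with 1 column per library. Per the labels' protocols, Trizol RNA was made into libraries with the NEBNext Small RNA kit. Trimming, aligner, build and treatment of reads that fit several miRNAs: not given in the sources used here. No molecular identifiers are described, so ligation and PCR enter each count, and intervals and limits of 0 cover counting error only.

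edgeR 4.0.16 (quasi-likelihood, robust, group alone) in R 4.3.3 was run on the 773 miRNAs that passed the default filter (minimum count 10, minimum total 15) with TMM factors, and p-values were adjusted by Benjamini-Hochberg over all of them. The fit was tested on simulated data. DESeq2 1.42.0 and limma 3.58.1 (voom) served as alternatives. The members and lists were chosen with earlier results of these data known. Named were the 10 most abundant and all called members, neighbours of the count limit, hairpins with both arms, members with the widest replicate difference, shared abundant seeds and the lists. Length classes and CCA endings were chosen after the values were seen. Sequences and hairpin positions come from RefSeq, hosts from GENCODE 29.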

Additional observations from a re-analysis of the deposited data

How the results depend on the processing

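Calls among members (7; 4 higher, 3 lower) were the same 7 under RLE, upper-quartile and library-size scaling and with the 5 most abundant miRNAs removed, an alternative chosen after seeing the data. limma-voom gave 6. Without a filter there were 4 (1 lower), with DESeq2 4 (1 lower), of which 3 were shared, and with at least 10 CPM in 2 libraries 2 (1 higher, 1 lower) of 35 tested. At a threshold of 0.01 there were 2 (1 higher, 1 lower), and among members with 100 or more counts 4 (1 lower). With the left-out stems kept 7 were higher. The replicate block left 2 calls (1 higher, 1 lower). Deviations of same-numbered libraries had a correlation of −0.015 across 773 miRNAs. With 2 pairs this cannot settle whether such libraries shared a batch, and the labels state no pairing. Leaving out a library gave 0 to 13 calls (0 to 7 higher, 0 to 6 lower), with 0 without PGK replicate 1 and without PGK replicate 2. In such fits 1 lone library takes its spread from the other group's pair, and the cause of the loss was not tested. miR-12135 reversed to 0.19 without CAG replicate 1 (−1.03 without CAG replicate 2) and miR-7977 to −0.36 without CAG replicate 2 (1.12 without CAG replicate 1). miR-4326 and miR-9903 kept the call in 11 of 13 alternatives, miR-4787-3p in 9 of 13, miR-4501 in 7, miR-4745-5p and miR-5579-3p in 6 and miR-5091 in 5 of 12. The share of counts in PGK was 0.477%, and 0.467% or 0.485% with limits of 100 or 20 counts. It ran from 0.471% to 0.483% without a PGK library, and the CAG share (0.563%) from 0.548% to 0.579% without a CAG library. Arm balance (60.0% of hairpins with more 3p counts) ran from 58.5% to 61.5% over left-out libraries. It was 65.5% among hairpins with 200 or more counts. Depth limits the rare members, of which 42 had fewer than 10 counts in CAG replicate 2.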

Other observations

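Mature tRNAs end in the letters CCA, and miR-7977 ends in them as well. Of 471 tested miRNAs that average 5 CPM or more and have a sequence, 7 ended in CCA (1.49%), among them miR-7977, miR-1260a and the left-out miR-4454. These 3 were 2.78-fold, 2.53-fold and 2.70-fold higher in CAG replicate 2 than in CAG replicate 1, and in PGK cells replicate 2 stood at 0.805, 0.964 and 0.794 of replicate 1. The other 4 had CAG ratios of 0.876 to 1.39. They have 21 or 22 bases and the first 3 have 18 or 20, so ending and length cannot be told apart. The pattern was noticed in these data, and no annotated nuclear tRNA was searched.

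The left-out miR-5100 had 62.9 and 65.7 CPM in PGK and 93.2 and 188 CPM in CAG replicates 1 and 2. It was called higher in CAG (log2 fold change 1.10, SE 0.30; edgeR adjusted p = 0.0373), with the higher level in CAG replicate 2, as for miR-4286 and miR-7977.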
